A study of Oryza sativa Indica Group with 18 samples.

Results

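The genes described here are the potassium and sodium transporters of rice that carry the family names HAK, HKT, AKT, NHX, TPK or SOS followed by a number. In the RefSeq rice annotation (assembly ASM3414082v1, cultivar Nipponbare) 36 genes have such a name, and 26 of them, of 17905 genes in all, had at least 1 probe set on the array that is annotated to a single gene. These were 22 of 25 HAK genes, 1 of 7 HKT genes (HKT1;5), AKT1, TPK2 and TPK3. No gene of the annotation matched a NHX or SOS name, and HAK6, HAK19, HAK24 and the other HKT genes were not analysed here. Where a gene had several probe sets, the one of highest mean was used, and the 26 genes held 33 probe sets of the 57381.

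Plants hold potassium at a high concentration in the cytosol and sodium at a low one, and under water deficit potassium serves as an osmoticum and drives the movement of guard cells. The HAK genes encode carriers that take up or redistribute K+, some of them from very dilute solutions. AKT1 encodes the inward K+ channel of the root, which the calcium sensor CBL1 with the kinase CIPK23 activates by phosphorylation, and HKT1;5 (also called SKC1) encodes a Na+ transporter that takes Na+ out of the xylem sap and so limits its passage to the shoot. The name TPK is less certain, since it also abbreviates thiamin pyrophosphokinase, and the annotation used here lists the rice vacuolar 2-pore K+ channels as KCO1 (TPKA) and KCO2 (TPKB). TPK2 and TPK3 are therefore given by their names only, without a role.

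The RNA came from whole seedlings, 7 days old, of 2 indica cultivars, Dagad deshi (DD in the plots) and IR20. Seedlings grown in nutrient solution were moved onto filter paper at 28 °C for 3 h or 6 h as drought stress, while control seedlings of each cultivar stayed in the solution for 6 h and serve both times. Water and the nutrients of the solution were thus withdrawn together, and their parts in a change cannot be told apart. There was no control at 3 h. Drought and the time passed therefore cannot be told apart in comparisons of 3 h with control or of 6 h with 3 h. Each of the 6 groups held 3 arrays labelled as biological replicates. Nothing in the labels tells if they were raised as separate cultures, so p-values measure the spread between these samples, which may be technical. Levels are given as log2 of the deposited intensity plus 16, so the lowest level possible is 4, and a level below about 5 lies near that floor. Changes are differences of group means on this scale with their 95% confidence interval (n = 3 arrays per group), and a change was called when its adjusted p (limma, Benjamini-Hochberg over 40094 probe sets tested) was under 0.05. Levels of different genes were not compared, because probe sets differ in their response.

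The controls differed from the droughted seedlings in more than the treatment. A 3'/5' index, which is higher in broken RNA and is the log2 signal of 3' over 5' control probe sets averaged over cyclophilin, actin and GAPDH, was 4.12 to 8.88 on the 6 control arrays and 1.80 to 3.19 on the 12 drought arrays, with no overlap. The highest values were on Dagad deshi control replicate 1 (8.88) and IR20 control replicate 2 (6.88). Summed intensities of the water deficit list (LEA3, RAB16B, RAB16C, RAB16D and RAB21) were 146 to 416 in Dagad deshi controls and 1680 to 3250 in IR20 controls, and reached 160000 to 165000 in Dagad deshi and 96200 to 98900 in IR20 at 3 h, and 175000 to 181000 and 177000 to 190000 at 6 h. The root list (LSI1, LSI2 and IRT1) summed to 2920 to 3370, 3520 to 4210 and 3670 to 4110 in Dagad deshi control, 3 h and 6 h, against 6110 to 9040, 9460 to 9830 and 11300 to 13900 in IR20. Such sums weigh the strongest signal most. The median change of these 3 genes was 0.04 and -0.07 in Dagad deshi and 0.05 and 0.48 in IR20, at 3 h and 6 h. In Dagad deshi at 3 h their changes differed in sign. The shoot list (CAB2R, RBCS and RBCS1, the last near the floor) fell from 76900 to 80000 in Dagad deshi controls to 40300 to 45100 at 6 h, and from 65700 to 76900 to 52400 to 63000 in IR20. The seed remnant list was uneven within groups, since AMY1A stood at 14.16 on Dagad deshi control replicate 1 and at 4.42 and 4.55 on the other two, and GLUA-1 lay at the floor on all arrays. The part of these lists in the results below was not tested. In whole seedlings, fewer cells of a type and less RNA per cell cannot be told apart. The cultivar labels were checked with 85 probe sets that stood above 7.5 in IR20 and below 5 in Dagad deshi at 3 h: 90.6 to 98.8% of them were above 6 on the IR20 control arrays, against 11.8 to 16.5% on the Dagad deshi control arrays. The reverse set, above 7.5 in Dagad deshi and below 5 in IR20 at 3 h, held 52 probe sets. Of these, 67.3 to 71.2% were above 6 on the Dagad deshi control arrays, against 0 to 3.85% on the IR20 control arrays.

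Of the 26 genes, 23 passed the filter on low values. HAK13, HAK20 and HAK26 did not, with levels of 4.33 to 4.48 on every array, and HAK3, HAK4 and HAK14 passed it only narrowly, with group means of 4.51 to 4.90. The genes that changed were mostly higher under drought. In Dagad deshi at 3 h, 14 of 23 were higher and 7 lower than in the control, where 70.9% of all probe sets tested were called (23.6% higher and 47.3% lower). At 6 h the counts were 14 higher and 5 lower, against 70.4% called (24.7% higher and 45.7% lower). In IR20, 12 were higher and 3 lower at 3 h, against 36.8% called (14.9% higher and 21.9% lower), and 11 were higher and 4 lower at 6 h, against 45.9% called (20.4% higher and 25.5% lower). The median change of the 23 genes was 0.68 and 0.56 in Dagad deshi and 0.51 and 0.36 in IR20, at 3 h and 6 h, and the median of all probe sets tested lay between -0.03 and 0.01. Since 3 genes at the floor were not tested, these counts describe the 23 genes measured and not the families as a whole.

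The genes that were called higher in all 4 comparisons with a control were 11 HAK genes: HAK1, HAK5, HAK7, HAK10, HAK11, HAK12, HAK15, HAK16, HAK18, HAK25 and HAK27. Among all probe sets 10.7% were higher in all 4. HAK2 and HAK22 were lower in all 4, as were 16.4% of all probe sets. With the 3'/5' index added to the fit, 10 of the 11 higher genes kept all 4 calls, the exception being HAK1 in IR20 at 6 h (0.30, adjusted p = 0.212), HAK22 kept 3 of 4, and HAK2 kept 0 of 4. The counts were then 12 higher and 0 lower in Dagad deshi at 3 h (17.7 and 21% of all probe sets), 12 and 1 at 6 h (18.4 and 21.2%), 13 and 1 in IR20 at 3 h (19.3 and 20.7%), and 12 and 2 at 6 h (34.4 and 24.4%). Since the index did not overlap between control and drought arrays, calls kept or lost in this fit cannot tell its part from that of drought. The 4 comparisons share 2 control groups, so the counts are not independent of each other.

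**Figure D1:**
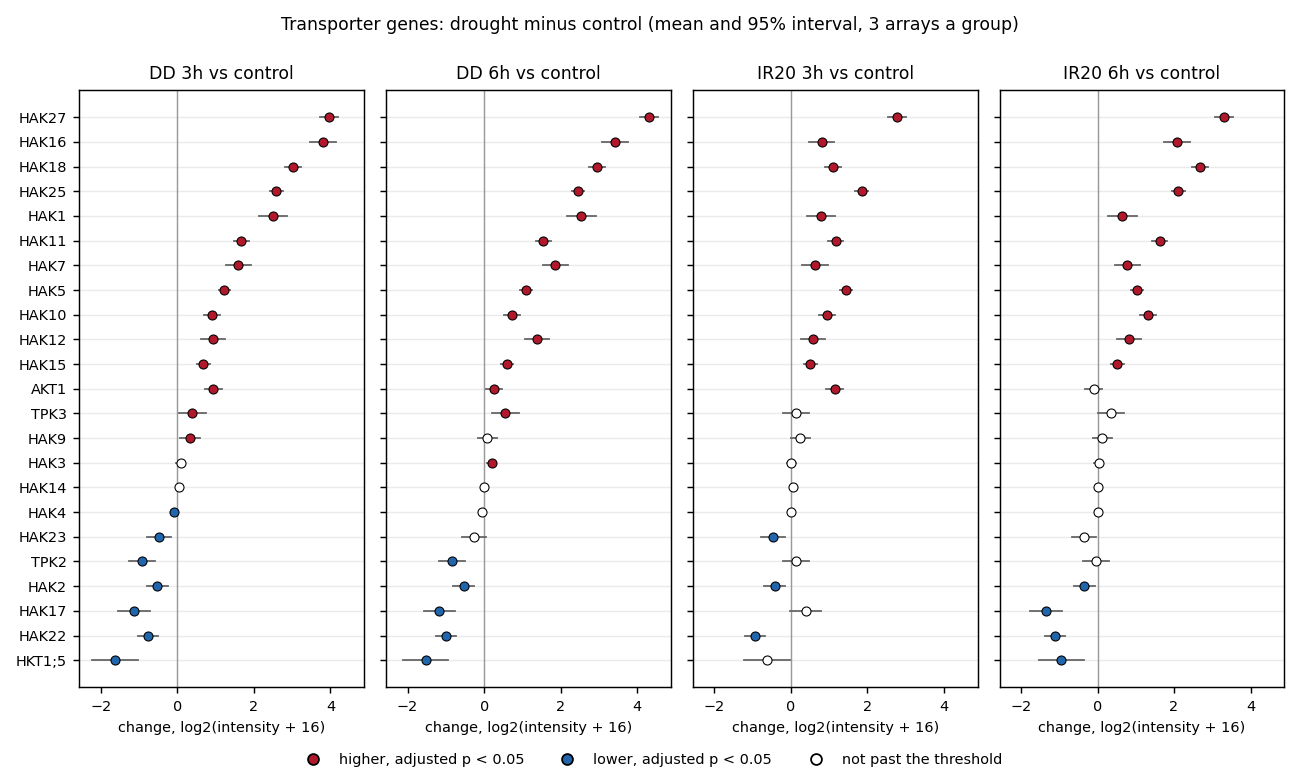
Change of each of the 23 transporter genes tested in the 4 comparisons with control, on the log2(intensity + 16) scale with the 95% interval (3 arrays a group), genes ordered by their mean change. Red points were higher and blue points lower at an adjusted p under 0.05. HAK27 stands at the top in all 4 panels and HKT1;5, HAK17, HAK22 and HAK2 lie at or near the bottom, while HAK3, HAK4 and HAK14 change by at most 0.20.

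HAK27 (LOC4333296, chromosome 3) had the largest change of the list on this scale in each of the 4 comparisons with control. Its levels in Dagad deshi were 4.74, 4.44 and 4.48 in the controls, 8.51, 8.56 and 8.51 at 3 h and 8.90, 8.76 and 8.94 at 6 h. In IR20 they were 4.72, 4.95 and 5.11 in the controls, 7.70, 7.74 and 7.67 at 3 h and 8.17, 8.30 and 8.23 at 6 h. The controls of both cultivars thus lay near the floor and every drought array lay far above them. The rise was 3.97 (3.74 to 4.20, 15.7-fold) at 3 h and 4.31 (4.08 to 4.54, 19.9-fold) at 6 h in Dagad deshi, and 2.78 (2.54 to 3.01, 6.85-fold) and 3.31 (3.07 to 3.54, 9.89-fold) in IR20, with adjusted p between 1.67e-13 and 6.19e-11. These folds depend on the constant of 16: for HAK27 in Dagad deshi at 6 h the change was 5.76 with a constant of 1 and 2.85 with 64. The rank depends on it too, since with 64 HAK27 came first in none of the 4: the change of HAK16 was larger in Dagad deshi (3.31 against 2.54 at 3 h and 2.93 against 2.85 at 6 h), and in IR20 that of HAK25 at 3 h (1.80 against 1.71) and that of HAK18 at 6 h (2.53 against 2.15). The rise was smaller in IR20, with a difference of -1.19 at 3 h (-1.52 to -0.87, adjusted p = 2.82e-05) and of -1.01 at 6 h (-1.33 to -0.68, adjusted p = 0.000248).

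HAK16 (LOC4333298), a K+ uptake transporter of rice, is the next annotated gene to HAK27 on chromosome 3, with no gene between them, and its time course was another. In Dagad deshi its levels were 7.01, 6.96 and 6.26 in the controls, 10.58, 10.55 and 10.53 at 3 h and 10.26, 10.11 and 10.10 at 6 h, so the larger rise, of 3.81 (3.48 to 4.15, 14.0-fold, adjusted p = 2.97e-11), was that at 3 h. The change of HAK16 from 3 h to 6 h in Dagad deshi was not called (-0.40, -0.73 to -0.06, adjusted p = 0.138). In IR20 the levels were 7.30, 7.22 and 7.62 in the controls, 8.22, 8.22 and 8.12 at 3 h and 9.40, 9.52 and 9.44 at 6 h, a rise of 0.80 (0.47 to 1.14, adjusted p = 0.000762) at 3 h and of 2.07 (1.74 to 2.41, adjusted p = 3.64e-08) at 6 h. At 3 h all IR20 arrays lay above their controls but below every droughted Dagad deshi array. The difference between the cultivars' responses was -3.01 at 3 h (-3.48 to -2.53, adjusted p = 1.61e-07), the largest of the list, and -1.34 at 6 h (-1.82 to -0.87, adjusted p = 0.000486).

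HAK18 (LOC4347862, chromosome 9) likewise rose early in Dagad deshi and later in IR20. Its levels in Dagad deshi were 7.77, 7.92 and 8.03 in the controls, 10.79, 10.85 and 11.16 at 3 h and 10.83, 10.84 and 10.92 at 6 h. In IR20 they were 8.49, 8.72 and 8.58 in the controls, 9.69, 9.77 and 9.61 at 3 h and 11.14, 11.35 and 11.31 at 6 h. Dagad deshi rose by 3.03 (2.82 to 3.24, adjusted p = 2.55e-12) and IR20 by 1.09 (0.88 to 1.30, adjusted p = 4.44e-07) at 3 h, a difference of -1.93 (-2.23 to -1.64, adjusted p = 1.23e-07). At 6 h the rises were 2.96 and 2.67, and their difference of -0.29 (-0.58 to 0.01, adjusted p = 0.106) did not pass the test. The level itself was then higher in IR20, by 0.40 (0.19 to 0.61, adjusted p = 0.00723).

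HAK25 (LOC4330614, chromosome 2) rose early in both cultivars. It stood at 9.51, 9.59 and 9.36 in the controls of Dagad deshi, at 12.12, 11.996 and 12.10 at 3 h and at 12.04, 11.85 and 11.94 at 6 h. In IR20 it stood at 9.89, 9.64 and 9.89, then at 11.67, 11.70 and 11.61, and then at 11.91, 11.84 and 12. Control and drought arrays did not overlap in either cultivar. The rises at 3 h and 6 h were 2.58 and 2.45 in Dagad deshi and 1.85 and 2.11 in IR20 (adjusted p between 1.35e-12 and 1.49e-10), and the response at 3 h was smaller in IR20, with a difference of -0.73 (-0.97 to -0.49, adjusted p = 0.000126).

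HAK1 (LOC4335729, chromosome 4), a high-affinity K+ uptake transporter of rice roots, differed between the cultivars before any drought. The 3 control levels were 8.27, 8.43 and 8.25 in Dagad deshi and 10.85, 9.95 and 10.83 in IR20, so the lowest IR20 control lay above the highest Dagad deshi control, and the difference of 2.23 (1.86 to 2.59, 4.68-fold) had an adjusted p of 3.71e-07. This was the largest control difference of the list. The second probe set of HAK1 gave 2.26 (1.90 to 2.63). Droughted Dagad deshi reached 10.84, 10.75 and 10.84 at 3 h and 10.86, 10.87 and 10.86 at 6 h, and droughted IR20 reached 11.33, 11.44 and 11.19 and then 11.24, 11.12 and 11.22. The levels of the cultivars thus came within 0.51 (0.14 to 0.87, adjusted p = 0.0326) at 3 h and 0.33 (-0.03 to 0.70, adjusted p = 0.223) at 6 h. The rise was 2.50 and 2.54 in Dagad deshi and 0.78 and 0.65 in IR20, a difference of -1.72 (-2.24 to -1.20, adjusted p = 6.81e-05) at 3 h and -1.89 (-2.41 to -1.37, adjusted p = 6.19e-05) at 6 h. In a limma fit on only the groups compared, neither rise in IR20 was called (adjusted p = 0.0682 at 3 h and 0.0842 at 6 h). The lower IR20 control, replicate 2, was also the IR20 control of the highest 3'/5' index and of the lowest LSI2 level (9.96 against 11.21 and 11.27), and the root list had its larger sums in IR20 in every state; the part of either was not tested.

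**Figure D2:**
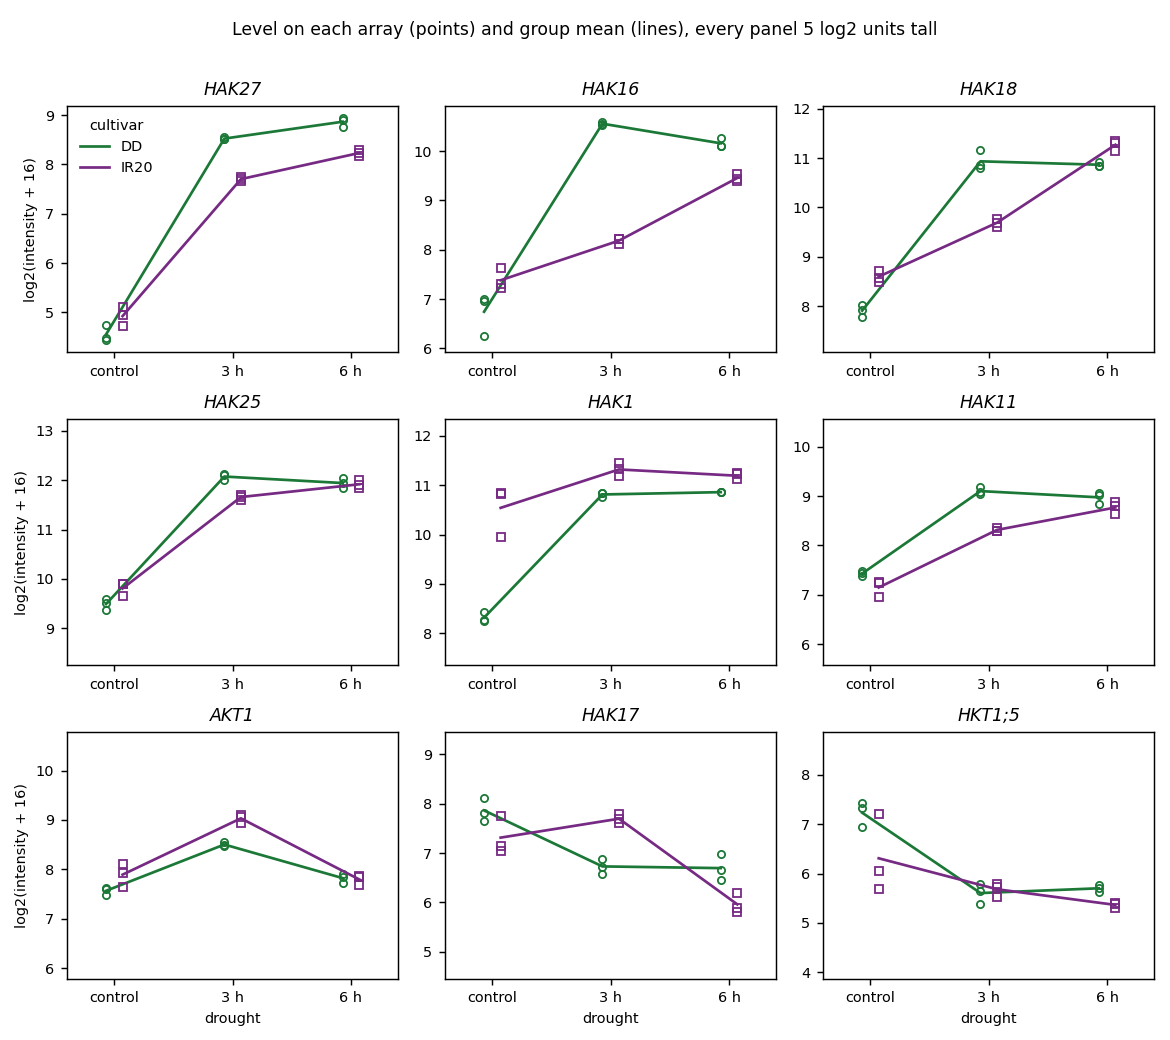
Level of 9 transporter genes on each of the 18 arrays (green circles Dagad deshi, purple squares IR20) with lines through the group means, on the log2(intensity + 16) scale and with every panel 5 units tall. HAK16 and HAK18 have their highest group mean at 3 h in Dagad deshi and at 6 h in IR20, but in Dagad deshi neither change from 3 h to 6 h was called. HAK1 differs in the controls, AKT1 peaks at 3 h, and HAK17 falls in IR20 only between 3 h and 6 h.

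The remaining 6 genes of the higher group rose by less than HAK27, HAK16, HAK18, HAK25 and HAK1 in Dagad deshi, but in IR20 HAK5 and HAK11 rose by more than HAK18, HAK16 and HAK1 at 3 h, and all but HAK15 rose by more than HAK1 at 6 h. HAK11 rose by 1.67 and 1.55 in Dagad deshi and by 1.17 and 1.62 in IR20. HAK7 rose by 1.59 and 1.86 in Dagad deshi and by 0.63 and 0.78 in IR20, and its response was smaller in IR20, with a difference of -0.97 (-1.43 to -0.50, adjusted p = 0.00299) at 3 h and of -1.08 (-1.55 to -0.62, adjusted p = 0.00207) at 6 h. The second probe set of HAK7, of type _x_at and with wide intervals, gave -0.49 (-2.29 to 1.30, adjusted p = 0.644) and -1.32 (-3.12 to 0.48, adjusted p = 0.213). With the mean of both probe sets of HAK7 the call at 3 h was lost (-0.73, adjusted p = 0.166), as were the differences of its level between the cultivars in the controls, at 3 h and at 6 h. HAK10, a transporter of the vacuolar membrane, rose by 0.91 and 0.72 in Dagad deshi and by 0.95 and 1.32 in IR20. Here the IR20 response was the larger at 6 h, by 0.60 (0.30 to 0.89, adjusted p = 0.00481), and the second probe set gave 0.54 (0.28 to 0.79, adjusted p = 0.00423). HAK12 rose by 0.59 to 1.37 and HAK15 by 0.51 to 0.68 over the 4 comparisons.

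HAK5 (LOC4326945, chromosome 1), which encodes a K+ transporter of root uptake and transport to the shoot in rice, has a pair of probe sets that did not give the same picture. The one of highest mean stood at 13.53, 13.30 and 13.27 in Dagad deshi controls, 14.62, 14.56 and 14.60 at 3 h and 14.46, 14.46 and 14.47 at 6 h, and in IR20 at 13.31, 13.24 and 13.44, then 14.79, 14.79 and 14.71, and then 14.40, 14.31 and 14.34. All drought arrays lay above all control arrays. It rose by 1.23 and 1.10 in Dagad deshi and by 1.44 and 1.02 in IR20. In IR20 it was again lower at 6 h than at 3 h, with a change of -0.41 (-0.56 to -0.26, adjusted p = 0.00048). The other probe set stood between 4.62 and 6.58 on all arrays, rose by 1.09 and 1.48 in Dagad deshi, and in IR20 fell at 3 h, with a change of -0.84 (-1.18 to -0.49, adjusted p = 0.00069), and changed by -0.12 at 6 h (-0.46 to 0.23, adjusted p = 0.568). The rise in Dagad deshi held for both and that in IR20 only for the probe set of highest mean. Which of the pair reports HAK5 was not tested, since the probe sequences were not used here.

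AKT1 (LOC4326245, chromosome 1) was the only gene of the list that was higher at 3 h and lower again at 6 h in both cultivars. Its levels in Dagad deshi were 7.61, 7.47 and 7.61 in the controls, 8.55, 8.48 and 8.48 at 3 h and 7.90, 7.84 and 7.73 at 6 h. In IR20 they were 7.93, 7.64 and 8.11, then 9.06, 9.10 and 8.94, and then 7.84, 7.69 and 7.86. The 3 h arrays lay above all others of their cultivar, and the 6 h arrays of IR20 lay within the range of its controls. The rise at 3 h was 0.94 (0.72 to 1.16, adjusted p = 1.46e-06) in Dagad deshi and 1.14 (0.92 to 1.36, adjusted p = 4.63e-07) in IR20, and between 3 h and 6 h it changed by -0.68 (-0.90 to -0.46, adjusted p = 0.000483) and by -1.24 (-1.46 to -1.02, adjusted p = 5.29e-07). At 6 h Dagad deshi was 0.26 above its control (0.04 to 0.48, adjusted p = 0.0373), a call that was lost with the 3'/5' index in the fit (0.07, adjusted p = 0.823), and IR20 differed from its control by -0.10 (-0.32 to 0.12, adjusted p = 0.462). The probe set is of the type marked _x_at, which can bind other transcripts too.

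The genes that were lower under drought lost more of their calls with the 3'/5' index in the fit. Without the 2 control arrays of the highest index, the only calls lost in any comparison were those of HAK9 and HAK4 in Dagad deshi at 3 h. HKT1;5 (LOC4327757, chromosome 1) stood at 7.44, 6.94 and 7.33 in Dagad deshi controls, at 5.64, 5.38 and 5.80 at 3 h and at 5.76, 5.71 and 5.64 at 6 h. In IR20 it stood at 5.69, 7.20 and 6.05 in the controls, at 5.79, 5.53 and 5.72 at 3 h and at 5.31, 5.39 and 5.40 at 6 h. In Dagad deshi the control arrays did not overlap the drought arrays, whereas the lowest IR20 control lay within the range of IR20 at 3 h. The change was -1.63 (-2.22 to -1.03, adjusted p = 0.000133) and -1.53 (-2.13 to -0.94, adjusted p = 0.000229) in Dagad deshi, and -0.63 (-1.22 to -0.03, adjusted p = 0.0985) and -0.95 (-1.54 to -0.35, adjusted p = 0.0112) in IR20. With the 3'/5' index in the fit all 3 calls of HKT1;5 were lost, at -0.58 (adjusted p = 0.337), -0.50 (adjusted p = 0.41) and, for IR20 at 6 h, -0.32 (adjusted p = 0.384). In a limma fit on only the groups compared, the fall of HKT1;5 in IR20 at 6 h was not called either (adjusted p = 0.0963). The highest IR20 control of HKT1;5 was replicate 2, the one of the highest index in IR20.

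HAK17 (LOC4347211, chromosome 9) fell at different times in the cultivars. In Dagad deshi the levels were 8.11, 7.82 and 7.66 in the controls, 6.73, 6.57 and 6.89 at 3 h and 6.46, 6.65 and 6.97 at 6 h. In IR20 they were 7.05, 7.75 and 7.13 in the controls, 7.69, 7.80 and 7.60 at 3 h and 6.19, 5.89 and 5.80 at 6 h. At 3 h the arrays of the cultivars did not overlap and IR20 was higher by 0.97 (0.55 to 1.38, adjusted p = 0.00104), while at 6 h the difference was -0.73 (-1.15 to -0.32, adjusted p = 0.0123). Against the control the change was -1.13 and -1.17 in Dagad deshi and 0.38 (-0.03 to 0.80, adjusted p = 0.153) and -1.35 (-1.77 to -0.94, adjusted p = 3.17e-05) in IR20. With the 3'/5' index in the fit, the falls of HAK17 in Dagad deshi were no longer called (-0.28 and -0.32), that in IR20 at 6 h was (-0.85, adjusted p = 0.00167), and IR20 at 3 h was called higher than its control (0.79, adjusted p = 0.00187). The fall in IR20 between 3 h and 6 h, a difference of means without control arrays, was -1.74 (-2.15 to -1.32, adjusted p = 9.3e-06), and the second probe set gave -0.81 (-1.14 to -0.48, adjusted p = 0.00111). The intervals and p-values of these falls still use the spread shared with the controls.

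HAK22 and HAK2 fell in each comparison with control, HAK22 by the more. HAK22 stood at 6.11, 5.51 and 5.59 in Dagad deshi controls and at 4.63 to 4.997 on the 6 drought arrays, and at 6.08, 5.98 and 5.85 in IR20 controls and at 4.78 to 5.05 under drought. Control and drought arrays of HAK22 did not overlap, but the drought levels lay near the floor. The changes were -0.77, -0.995, -0.94 and -1.12 for Dagad deshi at 3 h and 6 h and IR20 at 3 h and 6 h, and in IR20 those of HAK22 were larger than those of HKT1;5. With the 3'/5' index in the fit HAK22 kept 3 of its 4 calls, at -0.50 (adjusted p = 0.0263) in Dagad deshi at 6 h and at -0.70 (adjusted p = 0.000183) and -0.82 (adjusted p = 7.66e-05) in IR20, and lost that in Dagad deshi at 3 h (-0.26, adjusted p = 0.257). Its second probe set fell in Dagad deshi, by 0.59 at each time, and changed by -0.05 in IR20 at each time without passing the test. HAK2 stood at 9.61, 9.05 and 9.03 in Dagad deshi controls, 8.87, 8.57 and 8.68 at 3 h and 8.71, 8.66 and 8.71 at 6 h, and in IR20 at 9.33, 9.29 and 9.45, then 8.96, 9.01 and 8.81, and then 9.03, 9.02 and 8.98. It changed by -0.52 and -0.53 in Dagad deshi and by -0.43 and -0.35 in IR20, and lost all 4 calls with the 3'/5' index in the fit. HAK23 stood at 10.15, 9.75 and 9.41 in Dagad deshi controls, 9.45, 9.14 and 9.28 at 3 h and 9.70, 9.42 and 9.41 at 6 h, and in IR20 at 10.17, 9.93 and 10.10, then 9.64, 9.56 and 9.60, and then 9.77, 9.63 and 9.72. Its Dagad deshi groups overlapped. It was called lower at 3 h in each cultivar (-0.48 and -0.47), and lost both calls with the index.

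TPK2 and TPK3 were measured with 1 probe set each. TPK2 stood at 8.36, 7.78 and 7.65 in Dagad deshi controls, 7.06, 7.08 and 6.85 at 3 h and 7.18, 7.07 and 7.00 at 6 h, and in IR20 at 7.16, 6.88 and 7.31, then 7.26, 7.30 and 7.17, and then 7.07, 7.08 and 7.09. Only the Dagad deshi controls stood apart. The falls of TPK2 in Dagad deshi, by 0.93 and 0.84, were not called with the 3'/5' index in the fit (adjusted p = 0.0989 and 0.147). TPK3 stood at 7.64, 6.99 and 6.99 in Dagad deshi controls, 7.63, 7.48 and 7.69 at 3 h and 7.64, 7.94 and 7.71 at 6 h, and in IR20 at 7.63, 7.44 and 7.90, then 7.83, 7.83 and 7.75, and then 8.07, 7.97 and 8.02. The Dagad deshi control of the highest index, replicate 1, reached the drought levels, and the rises of TPK3 in Dagad deshi were 0.39 (adjusted p = 0.0395) and 0.56 (adjusted p = 0.00721). With the index in the fit the first was not called (0.73, adjusted p = 0.0638).

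**Figure D3:**
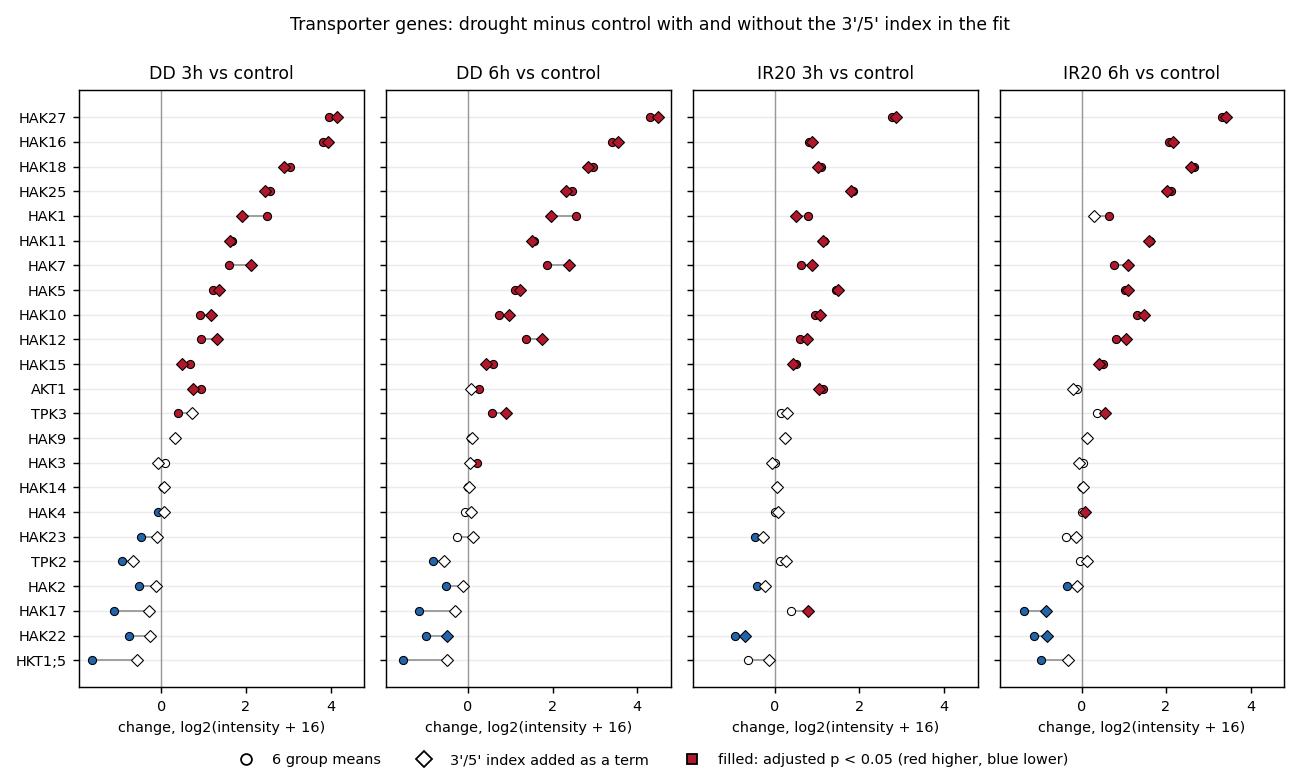
Change of each of the 23 transporter genes in the 4 comparisons with control, from the fit of 6 group means (circles) and with the 3'/5' index added as a term (diamonds), on the log2(intensity + 16) scale. Filled symbols passed an adjusted p under 0.05, in red for higher and blue for lower. The rises from HAK27 down to HAK15 stay filled except HAK1 in IR20 at 6 h, and of the falls none stays filled in Dagad deshi at 3 h.

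The comparisons of 6 h with 3 h use no control arrays in their difference, but their intervals and p-values use the spread shared by all 18 arrays. Without a control at 3 h, they do not separate the length of drought from the time passed. The 3'/5' index was 1.80 to 2.14 at 3 h and 1.81 to 2.15 at 6 h in Dagad deshi. In IR20 it was 2.79 to 2.89 at 3 h and 3.19, 1.82 and 1.86 at 6 h, so that 2 of the 3 arrays at 6 h lay below all those at 3 h. In Dagad deshi 1 of 23 genes was called between 3 h and 6 h, the fall of AKT1, where 11.5% of all probe sets were called (5.33% higher and 6.16% lower). In IR20, 6 were higher and 3 lower at 6 h, against 25.5% (10.9% higher and 14.6% lower). The 6 were HAK18 (1.58, 1.37 to 1.79, adjusted p = 3.09e-08), HAK16 (1.27, 0.93 to 1.61, adjusted p = 2.44e-05), HAK27 (0.53), HAK11 (0.45), HAK10 (0.37) and HAK25 (0.26), and the 3 were HAK17, AKT1 and HAK5. The same 9 genes were called with the index in the fit. HAK27 in Dagad deshi changed by 0.34 (0.11 to 0.57, adjusted p = 0.0572) and HAK12 by 0.45 (0.13 to 0.76, adjusted p = 0.0671), and both were called under several of the alternative settings.

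The difference of these late changes between the cultivars was compared after the other results were known. It was called for 7 of 23 genes, where 14.3% of all probe sets were called (6.25% higher and 8.01% lower). IR20 changed more than Dagad deshi in HAK16 (1.67, 1.19 to 2.14, adjusted p = 0.000147), HAK18 (1.65, 1.35 to 1.94, adjusted p = 2.68e-06), HAK11 (0.58), HAK10 (0.57) and HAK25 (0.39, adjusted p = 0.0287), and it changed in the downward direction in HAK17 (-1.70, -2.29 to -1.11, adjusted p = 0.00068) and AKT1 (-0.56, -0.87 to -0.25, adjusted p = 0.018). In the 5 genes of the first kind the Dagad deshi value lay between -0.40 and -0.07 and was not called. For HAK27 the difference was 0.19 (-0.14 to 0.51, adjusted p = 0.585).

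**Figure D4:**
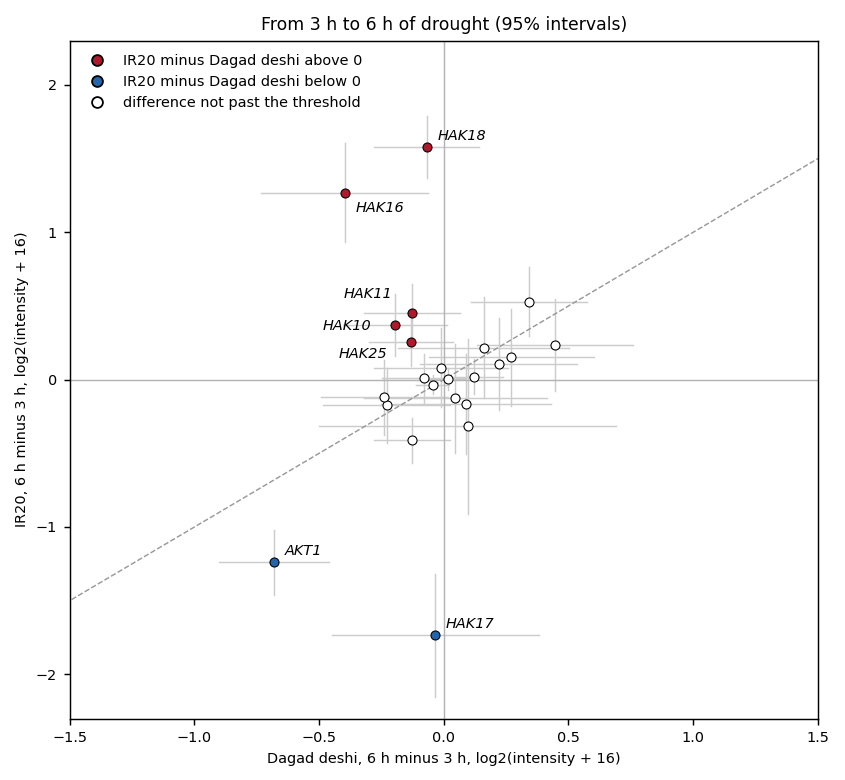
Change from 3 h to 6 h of drought in Dagad deshi (horizontal) and in IR20 (vertical) for the 23 transporter genes, on the log2(intensity + 16) scale with 95% intervals. The dashed line marks equal change. Colored points, named, are the 7 genes whose difference between the cultivars passed the test: 5 above the line with HAK18 and HAK16 the farthest, and AKT1 and HAK17 below it.

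Between the cultivars, the levels, that is the probe set signals, differed in 15 of 23 genes in the controls (10 higher in IR20, 5 lower), where 53.1% of all probe sets were called (17.2% higher and 35.9% lower). The same probe sets were read in both cultivars, and whether the sequences they bind differ between the cultivars was not tested. Under drought the counts were 10 at 3 h (3 higher, 7 lower) against 34.2% (18.1% higher and 16% lower), and 6 at 6 h (2 higher, 4 lower) against 22.1% (10.5% higher and 11.6% lower). In the controls, the differences after HAK1 were those of HKT1;5 (-0.92, adjusted p = 0.0129), TPK2 (-0.81), HAK18 (0.69), HAK16 (0.64) and HAK17 (-0.55). A fit on the control arrays alone left 2 of the 15 calls, HAK1 and HAK18. Those of HKT1;5 (adjusted p = 0.158), TPK2 (adjusted p = 0.0862), HAK16 (adjusted p = 0.135) and HAK17 (adjusted p = 0.148) were lost. With array weights that of HAK18 was lost too (adjusted p = 0.123). At 6 h HAK16 (-0.70), HAK27 (-0.63), HAK7 (-0.57) and HAK17 (-0.73) were lower in IR20, and HAK18 (0.40) and HAK15 (0.24) were higher. The response to drought differed between the cultivars in 10 genes at 3 h (3 higher in IR20, 7 lower), where 48.2% of all probe sets were called (31.5% higher and 16.7% lower), and in 8 at 6 h (2 higher, 6 lower), where 43% were (28.5% higher and 14.6% lower).

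Of the related genes that the family names leave out, the channel gene KCO2 was higher in all 4 comparisons with control. KCO2 stood at 6.91, 6.73 and 6.69 in Dagad deshi controls, 10.03, 10.11 and 9.90 at 3 h and 10.57, 10.50 and 10.72 at 6 h, and in IR20 at 6.85, 6.88 and 6.93, then 8.77, 8.77 and 8.75, and then 9.91, 9.80 and 9.72. It rose by 3.23 and 3.82 in Dagad deshi and by 1.88 and 2.92 in IR20 (adjusted p between 1.84e-14 and 1.14e-10), and the control and drought arrays did not overlap. KCO1 fell by 0.68 and 0.87 in Dagad deshi, and in IR20 changed by 0.11 (adjusted p = 0.689) at 3 h and fell by 0.35 (adjusted p = 0.0424) at 6 h. The 4 CAX genes, which encode exchangers of Ca2+ and other cations for protons, had 2 higher and 1 lower in Dagad deshi at both times and 1 of each in IR20 at both times. The shares of 75% and 50% lay near those of all probe sets (70.9 and 70.4% in Dagad deshi, 36.8 and 45.9% in IR20). At 6 h CAX3 stood at 1.17 in Dagad deshi and 0.64 in IR20 relative to the control, and CAX1B at -0.30 and -0.82.

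The calcium sensors (CBL) and their kinases (CIPK), which regulate several of these transporters, were measured for 29 of 31 genes. In Dagad deshi 20 were higher and 7 lower at 3 h, and 16 and 7 at 6 h. In IR20 15 were higher and 5 lower at 3 h, and 16 and 5 at 6 h. The share called was thus 20 to 27 of 29, where 36.8 to 70.9% of all probe sets were. CIPK23, the kinase that activates AKT1, stood at 9.85, 9.38 and 9.43 in Dagad deshi controls and at 11.96 to 12.40 on its drought arrays, a rise of 2.48 and 2.71 (adjusted p = 2.16e-08 and 7.4e-09). In IR20 it stood at 11.26, 10.37 and 11.20 in the controls and at 11.11 to 11.28 under drought, a change of 0.24 (adjusted p = 0.394) and 0.32 (adjusted p = 0.186). As with HAK1, the IR20 controls lay above those of Dagad deshi, by 1.39, with replicate 2 the lowest. A second probe set annotated to CIPK23 did not show this: it changed by -0.40 (adjusted p = 0.000392) and -0.17 in Dagad deshi and by -0.26 (adjusted p = 0.0165) and -0.19 in IR20. CIPK16 rose by 2.95 and 2.71 in Dagad deshi and by 1.58 and 1.64 in IR20. CBL4, the counterpart of the Arabidopsis sensor SOS3, which acts with its kinase on Na+ export, rose by 1.57 and 1.67 and by 0.75 and 1.01. HAK9 lies near CIPK02 and CIPK29 on chromosome 7, with 1 and 2 genes between. While CIPK02 rose by 1.10 to 1.63 and CIPK29 by 1.13 to 1.54 over the 4 comparisons, HAK9 was called in 1 (0.32 in Dagad deshi at 3 h, adjusted p = 0.025).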

How the data were processed

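The authors labelled 500 ng of total RNA of whole seedlings by a 3' protocol and deposited 1 linear intensity per probe set for each of 18 arrays. GCOS is named in the submitters' processing notes without a version, and the summarization and normalization are not given in the sources used here. Precision is limited by how many arrays there are. To each intensity 16 was added before log2, 104 control probe sets were left out and 19 kept, and the 40094 probe sets whose mean exceeded the 30th percentile entered limma 3.58.1 in R 4.3.3 (6 group means, eBayes with trend, Benjamini-Hochberg within each comparison). Of the 12 comparisons, 11 were planned and that of the late changes between cultivars was added after the results were known. The members and lists were chosen with earlier results of these data known. Genes were named through a platform annotation, in which 22436 probe sets have 1 gene, 95 several and 34850 none listed, and RefSeq ASM3414082v1, which holds no gene descriptions. All members could be named. Values by array are given for HKT, AKT and TPK genes, for the 3 HAK genes of the largest rise and of the largest fall in a comparison with control, and for HAK1 and KCO2, and up to 3 genes of another list are named, besides CIPK02 and CIPK29, named as neighbours of HAK9. A proton pump list matched only OSA15, whose other name belongs to photosystem I, and was set aside, and no chloride or cyclic nucleotide gated channel matched. The fit was tested on simulated data. Alternatives were other normalizations, constants, filters, priors and probe set choices, a replicate block, array weights, the 3'/5' index as a term, fits on fewer groups and leaving out arrays.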

Additional observations from a re-analysis of the deposited data

Results flagged for a closer look

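The results below were singled out because the drought response differed between the cultivars in a test of the difference itself, as IR20 minus Dagad deshi on the log2(intensity + 16) scale, with limma's adjusted p over all probe sets. Where 48.2%, 43% and 14.3% of all probe sets are called in the same comparisons, a call alone does not set a transporter apart. At 3 h the response was smaller in IR20 for HAK16 (-3.01), HAK18 (-1.93), HAK1 (-1.72), HAK27 (-1.19), HAK7 (-0.97), HAK25 (-0.73) and HAK11 (-0.50), and the difference was above 0 for HAK17 (1.52), TPK2 (1.06) and HKT1;5 (1.00). At 6 h it was smaller for HAK1 (-1.89), HAK16 (-1.34), HAK7 (-1.08), HAK27 (-1.01), HAK12 (-0.55) and HAK25 (-0.34), and above 0 for TPK2 (0.81) and HAK10 (0.60). For the change between 3 h and 6 h, a comparison chosen after the results were known, it was above 0 for HAK16 (1.67), HAK18 (1.65), HAK11 (0.58), HAK10 (0.57) and HAK25 (0.39), and below 0 for HAK17 (-1.70) and AKT1 (-0.56).

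The calls of HKT1;5 at 3 h (adjusted p = 0.0487) and of HAK12 at 6 h (adjusted p = 0.0444) lay at the threshold and were lost under many of the alternative settings, for HKT1;5 among them without IR20 control replicate 1 (0.69) and with the 3'/5' index in the fit (0.45), and for HAK12 without Dagad deshi control replicate 3 (-0.37). The difference of HAK25 at 6 h (adjusted p = 0.0248) was lost with the 3'/5' index in the fit (-0.29, adjusted p = 0.0769), with only the groups compared (adjusted p = 0.0682) and with array weights (adjusted p = 0.208). It was also lost without Dagad deshi control replicate 3 (-0.28, adjusted p = 0.0557), IR20 control replicate 1 or 3, Dagad deshi 6 h replicate 1 or IR20 6 h replicate 2. The difference of HAK7 at 3 h was lost with the mean of its probe sets (-0.73, adjusted p = 0.166). With array weights, those of HAK11 at 3 h (-0.38, adjusted p = 0.216), TPK2 at 6 h (0.72, adjusted p = 0.0819) and HAK10 at 6 h (0.62, adjusted p = 0.0926) were lost. The differences of TPK2 rest on the Dagad deshi controls, since its other 5 groups had means of 6.99 to 7.24.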

How the results depend on the processing

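The counts of transporters called kept within 1.5 times of the value given under most alternatives. With the 3'/5' index in the fit, 12 transporters were called in Dagad deshi at 3 h, all of them higher, in place of 21. Against control, fits on only the groups compared called 16 and 16 in Dagad deshi at 3 h and 6 h, in place of 21 and 19. In IR20 they called 14 and 14, in place of 15 and 15. Transporters called between 3 h and 6 h in Dagad deshi numbered 1 in the fit given, 2 with quantile normalization or a constant prior, 3 with the 60th percentile filter, the index term or the mean of all probe sets of a gene, 4 with a constant of 64 or only the groups compared, 8 with array weights, 6 without the 2 high-index control arrays and 0 without probe sets marked _s_at or _x_at. The control difference between cultivars fell from 15 to 2 transporters when only the compared groups were fitted and to 1 with array weights. Array weights also gave 16 for the cultivars at 3 h, 12 at 6 h and 4 for the difference in response at 6 h, which was 13 without the 2 high-index control arrays. The array weights did not reach their convergence tolerance. The causes were not tested.

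Leaving out each array in turn gave 18 to 20 transporters for Dagad deshi at 3 h, 18 to 21 at 6 h, 13 to 16 and 14 to 17 for IR20, 1 to 6 and 8 to 9 between 3 h and 6 h in Dagad deshi and IR20, 7 to 17 for the control difference, 7 to 13 and 5 to 8 for the cultivars at 3 h and 6 h, 9 to 12 and 6 to 9 for the differences in response, and 6 to 8 for that of the late changes. Without Dagad deshi control replicate 1 the count between 3 h and 6 h in Dagad deshi was 6, without its replicate 3 it was 3, and without IR20 control replicate 1 or 3 or Dagad deshi 6 h replicate 1 it was 2, and without IR20 control replicate 3 the control difference was 7.

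A change of sign, with a call in the fit given or in the alternative, occurred for 4 genes. HAK4 in Dagad deshi at 3 h was 0.07 with the index term. Without probe sets marked _s_at or _x_at, HAK3 was -0.07 and -0.06 in Dagad deshi at 3 h and 6 h, -0.08 between the controls and 0.08 and 0.09 for the differences in response, and HAK22 was -0.54, 0.54 and 0.54 for the last 3. With the mean of all probe sets, HAK5 was 0.15 in IR20 between 3 h and 6 h, 0.77 between the controls and -0.86 for the difference in response at 3 h, and HAK22 was -0.15, 0.18 and 0.21 for the controls and the differences in response. Other probe sets are read in these last settings.

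The replicate numbers of the labels were not used to pair the samples. Of 45 pairs of same-numbered arrays, 12 had deviations correlated above 0.1 (-0.551 to 0.355). With 3 arrays a group this cannot show if the numbers pair the samples. With the number as a replicate block, 21, 19, 15 and 16 transporters were called in the 4 comparisons with control.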

Other observations

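The genes whose 6 group means ran most like those of HAK27, the member of the widest range, were OsPP2C02 (Pearson r = 0.9998), NAC048 (0.9983) and ERH1 (0.9973), among 2941 probe sets of named genes outside the list. OsPP2C02 ran from 6.51 to 11.74, NAC048 from 9.57 to 13.67 and ERH1 from 8.94 to 12.18 over the group means. This is a description over 6 means that all share the same arrays and the same contrast of control with drought, and the 3 were picked as the highest of many.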
